A study of Mus musculus with 60 samples.

Results

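The diet effect in female mice after 40 weeks was read from 10 of the 60 liver libraries of the series, 5 from animals fed much fat and sucrose (the HF/HS diet) and 5 from animals on a control diet. They were taken by the labels alone, as the female libraries of each diet at 40 weeks. All animals were of strain CC042/GeniUnc, an inbred line of the Collaborative Cross mouse panel, and no allele, transgene or drug was added. The HF/HS diet (TD.88137) drew 42% of its energy from milkfat rich in palmitic acid, and held 0.2% cholesterol and over 30% sucrose. The control diet (TD.08485) matched its ingredients at low fat and reduced sucrose. The comparison groups used below, males at 40 weeks and females at 20 and 60 weeks, had the same strain, the same diets and 5 animals per group. The sources used here give no age, housing, sampling hour or liver histology. A single inbred line stands behind every value, so nothing here extends to other strains.

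Total RNA depleted of ribosomal RNA was sequenced from flash-frozen whole liver, and the deposited table gave 1 whole-number count per gene and library. Totals ran from 12327757 to 15930025 counts in controls and from 14359526 to 20942463 in HF/HS animals. Levels are CPM, a gene's counts relative to the scaled size of its library, and fold changes are on the log2 scale with their standard error (SE) and 5 animals per group. A gene was called, and is said to have risen or fallen, at a Benjamini-Hochberg adjusted p under 0.05 in edgeR's quasi-likelihood test over 14180 genes, and every adjusted p below is of that kind. The labels give each library an animal number of its own but do not say what the numbers stand for. The p-values therefore measure the spread between the sequenced samples only. That spread was estimated over all 60 libraries of the series, not over these 10 alone. The libraries carried the expected sex transcripts, with Xist at 3140 to 3702 CPM in the 10 female libraries and at most 1.30 CPM in the males of the same age. The hepatocyte protein albumin (Alb) was abundant in all 10, at 14902 to 19025 CPM in controls and 11254 to 13516 CPM in HF/HS livers. The first principal component of the 10 libraries held 58.1% of the variance and separated the diets. Reads of near-identical relatives cannot always be kept apart, so single members of Cyp3a, Cyp2c, Cyp4a, Sult3a, Mup, Gsta, Gstm, Saa, Serpina1, Serpina3, H2, Slc22a26, Slc22a27 and the pancreatic enzyme genes are uncertain, as are H19 and Xist, because no source states whether strand was used.

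As background, the liver takes up fatty acids and sugar, packs surplus fat into lipid droplets and exports the rest as lipoproteins. Its own cholesterol synthesis is switched on by the transcription factor SREBP2 when sterols are low and held down when dietary cholesterol arrives, while bile acid synthesis, opened by Cyp7a1, is the main route by which cholesterol leaves the body. Long overfeeding in mice is known to add inflammation, scar-like matrix and bile-duct-like cells to the fat. Mouse liver is also a strongly sex-biased organ, since the pituitary releases growth hormone in different patterns in the sexes and so sets the levels of many cytochrome P450s, sulfotransferases and major urinary proteins.

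The genes of cholesterol synthesis fell together, and for that reason the promoter windows of 3 of the most changed enzymes that had one in RefSeq (GRCm38.p6) are shown. Each holds the 250 bases before the annotated start, 5′ to 3′ on the gene's strand, with the box CCAAT in capitals. The box reads ATTGG where it lies on the other strand. Cyp51, the lanosterol demethylase, has its window at chr5:4104698-4104947 on the minus strand. Pmvk, the phosphomevalonate kinase, has it at chr3:89454291-89454540 on the plus strand. Tm7sf2, a sterol reductase, has it at chr19:6067851-6068100 on the minus strand.
Cyp51: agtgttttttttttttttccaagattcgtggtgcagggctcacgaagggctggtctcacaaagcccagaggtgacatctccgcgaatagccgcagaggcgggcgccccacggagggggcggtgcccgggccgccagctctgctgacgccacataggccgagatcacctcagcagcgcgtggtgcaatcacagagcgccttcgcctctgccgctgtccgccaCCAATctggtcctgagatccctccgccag
Pmvk: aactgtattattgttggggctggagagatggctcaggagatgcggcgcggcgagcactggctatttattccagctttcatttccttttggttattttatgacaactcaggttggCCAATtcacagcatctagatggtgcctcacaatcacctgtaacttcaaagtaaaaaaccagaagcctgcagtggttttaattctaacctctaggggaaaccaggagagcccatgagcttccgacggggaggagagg
Tm7sf2: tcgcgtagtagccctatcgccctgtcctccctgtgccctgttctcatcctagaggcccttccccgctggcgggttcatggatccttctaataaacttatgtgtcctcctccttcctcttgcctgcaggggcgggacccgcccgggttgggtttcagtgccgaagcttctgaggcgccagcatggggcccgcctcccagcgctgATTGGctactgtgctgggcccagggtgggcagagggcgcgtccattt
CCAAT is the letter pattern bound by the factor NF-Y, which is known to act beside SREBP2. On either strand it was present in 15 of the 17 list members with a window (88.2%), in 36.4% of 11046 windows of genes tested and in 34.5% of all 27025 windows. Acat2 and Dhcr7 were the members without it. The sterol element letters TCACNCCAC, also sought on both strands, were found in 1 of the 17 members (Hmgcs1), in 1.06% of windows of tested genes and in 1.04% of all windows. The patterns do not overlap in their letters, a match is a description and not a binding site, and these windows say nothing about binding in these livers.

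Of the 14180 genes, 4017 (28.3%) differed between the diets in 40-week females. HF/HS livers were higher in 2127 (15.0%) and lower in 1890 (13.3%). Which direction held more calls was not stable: with any 1 of the 10 libraries left out 1576 to 1905 were higher and 1942 to 2282 lower, with more lower in each fit, and without small non-coding RNA genes 1907 were higher and 2333 lower. Differences of at least 2-fold were called for 760 genes higher (5.36%) and 270 lower (1.90%). In 2938 genes (20.7%) a call came with every HF/HS animal above, or every one below, all controls. The median log2 fold change of all genes tested was 0.01. In each of the 10 fits with 1 library left out it was lower, from -0.025 to -0.020, and more genes were tested (14269 to 14283). A small rise that lost its call in such a fit need not depend on the library left out.

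The steepest rises were in genes that female control liver barely expressed. Cyp3a11, a cytochrome P450 of drug and steroid oxidation on chromosome 5 (145854426-145879964, minus strand, GENCODE M21 for mm10), read 8.25, 3.60, 3.04, 1.69 and 2.46 CPM in the 5 controls and 169, 333, 390, 1064 and 796 CPM in the 5 HF/HS livers. The lowest HF/HS value stood far above the highest control. It rose by 7.15 ± 0.59 on the log2 scale (adjusted p = 4.33e-13). Gpnmb, a glycoprotein of lipid-laden macrophages on chromosome 6 (49036546-49070929), read 0.0671, 0.200, 0.370, 0.211 and 0.351 CPM in controls and 21.8, 15.8, 28.3, 51.3 and 41.8 CPM on HF/HS. It rose by 7.04 ± 0.73 with no overlap. Osbpl3, a lipid-binding protein of the oxysterol-binding family, read 0.965 to 2.01 CPM against 23.5 to 84.6 CPM and rose by 5.26 ± 0.60. Mmp12, the macrophage elastase, read 0.604 to 2.60 CPM against 25.8 to 55.4 CPM and rose by 5.08 ± 0.57.

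Several genes, not all of them epithelial, appeared from almost nothing. Krt20, an intestinal-type keratin, had no count in any control and 205 counts over the HF/HS livers, at least 50.5-fold higher if the controls together are set to a floor of 3 counts. Sprr1a, a small proline-rich protein of stressed epithelium, had 2 counts in controls and 900 on HF/HS, a ratio of 332 (exact 95% interval 91.8 to 2749). Ubd, a ubiquitin-like modifier, had 2 against 330 counts, a ratio of 122 (33.5 to 1011). These bounds and intervals cover counting error only. Muc13, a membrane mucin, read 0 to 0.266 CPM in controls and 4.86 to 36.7 CPM on HF/HS, and HF/HS animal 473 was the low one. Counting Krt20, 6 of 8 tested keratins rose and 0 fell, a family looked up after its values were seen, like the annexins (9 of 10 higher) and the S100a proteins (5 of 9 higher). Krt23 was read at 0.0740 to 1.86 CPM in controls and 17.7 to 23.4 CPM on HF/HS, Anxa2 at 17.0 to 26.1 against 69.9 to 131 CPM.

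Among the named genes with the lowest fold changes were Rnase2a (-6.00, and -6.94 without HF/HS 473), Crybb3 (-5.96), the protocadherin Pcdh20 (-5.85, and -6.49 without HF/HS 473) and A2m, alpha-2-macroglobulin (-5.83, and -5.23 without control 463). A2m read 40.9 and 43.1 CPM in controls 461 and 463 and 1.07 to 2.88 CPM in the other controls, and its call was lost with females only (adjusted p = 0.0501). Sult3a1, a sulfotransferase on chromosome 10 (33857721-33879532), read 132, 162, 246, 201 and 199 CPM in controls and 9.18, 9.83, 3.30, 1.46 and 6.75 CPM on HF/HS, with a fold change of -4.92 ± 0.52. Megf11, a transmembrane protein with EGF-like repeats, read 3.29 to 14.1 CPM against 0.0614 to 0.188 CPM. Prtn3, a serine protease known from neutrophil granules, read 17.6 to 76.0 CPM against 0.108 to 0.627 CPM. The neutrophil marker list was low in both groups, at 6.77 to 15.6 and 9.78 to 14.3 summed CPM, and 0 of its 5 tested members were called. The plot of 12 genes by animal shows these separations beside those described below.

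**Figure D1:**
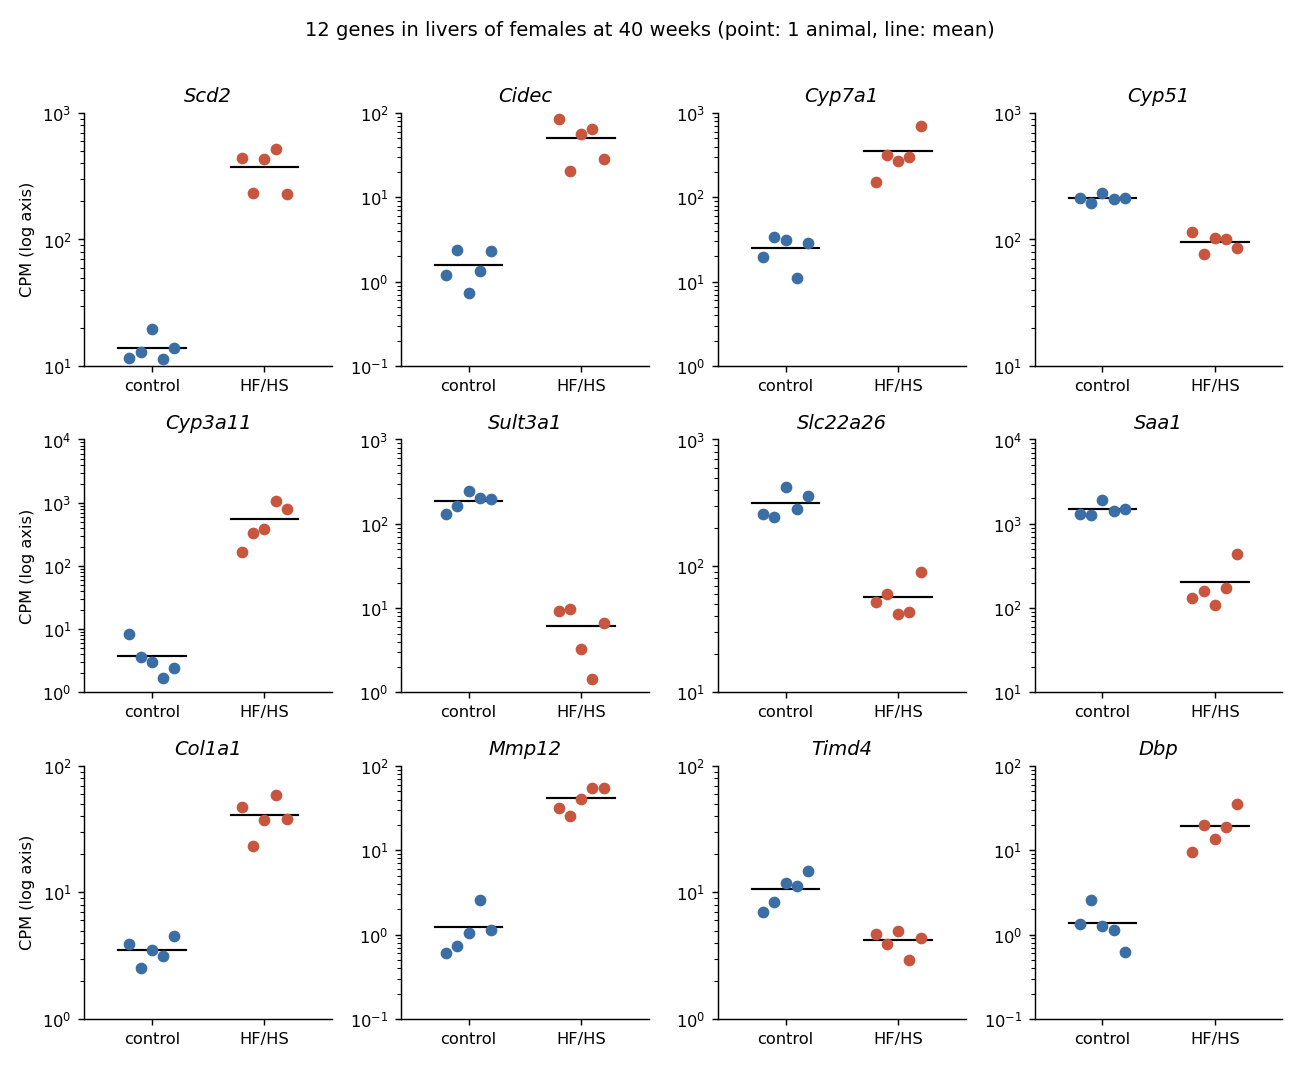
CPM on a log axis of 12 genes in each of the 10 female livers at 40 weeks, 1 point per animal with a line at the group mean, controls beside HF/HS. Control and HF/HS animals do not overlap for any of these genes, as in Cyp3a11 with controls at 1.69 to 8.25 CPM and HF/HS animals at 169 to 1064 CPM.

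Cholesterol synthesis was the list with the most one-sided fall among the lipid pathways. Of its 25 members, all tested, 18 fell and 0 rose, with a median log2 fold change of -0.64, and in 19 the HF/HS livers all lay below the controls. Over all genes tested they did so in 11.8%. Cyp51 read 213, 193, 235, 210 and 214 CPM in controls and 114, 76.6, 103, 101 and 86.4 CPM on HF/HS, a change of -1.15 ± 0.23 (adjusted p = 0.000165). Fdps, the farnesyl diphosphate synthase, read 190 to 240 CPM against 69.5 to 129 CPM (-1.03 ± 0.29). Sqle, the squalene epoxidase, read 182 to 230 CPM against 51.4 to 121 CPM (-1.21 ± 0.44, adjusted p = 0.0339), and that call was lost when control 461, HF/HS 473 or HF/HS 483 was left out (adjusted p = 0.0543, 0.0723 and 0.0752). Srebf2 itself fell by 0.36. Of the 15 genes of cholesterol export and storage, 1 rose (Abcg1, 0.63) and 2 fell (Lcat, -0.47, and Nr1h3, -0.17).

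Most genes of fat synthesis were not called. Among 21 genes of fatty acid and triglyceride synthesis 1 rose and 3 fell, near the shares over all genes (2 rose and 6 fell without control 463). The gene that rose was Scd2, a stearoyl-CoA desaturase on chromosome 19 (44293674-44306864) that adult liver normally expresses little. It read 11.5, 12.9, 19.6, 11.4 and 13.8 CPM in controls and 444, 233, 430, 524 and 227 CPM on HF/HS, a rise of 4.75 ± 0.41 (adjusted p = 2.19e-12). Scd1, the main liver desaturase, was not called, at 16599 ± 3093 CPM (SD, n = 5) in controls and 18527 ± 934 CPM on HF/HS. Fasn, the fatty acid synthase, had a log2 fold change of 0.02 ± 0.37, and its sign turned when single libraries were left out. Pnpla3, a lipid droplet hydrolase, fell by 1.62, a call lost without HF/HS 473, 482 or 483 (adjusted p = 0.0579, 0.0524 and 0.0733).

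Of 22 genes of lipid droplets and fatty acid uptake, 11 rose and 2 fell. Cidec, which fuses droplets into larger ones, read 1.21, 2.40, 0.740, 1.34 and 2.28 CPM in controls and 84.2, 20.5, 55.7, 65.1 and 28.2 CPM on HF/HS, a rise of 5.0 ± 0.69. Its relative Cidea read 0 to 0.222 CPM against 8.82, 0.270, 6.40, 3.18 and 2.09 CPM, so that HF/HS 473 lay next to the controls. Mogat1, a monoacylglycerol acyltransferase, rose by 3.29 ± 0.56 (4.0 without control 453). Cd36, the fatty acid receptor, read 214 to 459 CPM against 548 to 696 CPM and rose by 0.96 ± 0.27. Plin2, the common droplet coat protein, was not called (-0.13 ± 0.14). Fabp5, a fatty acid carrier, went down, from 133, 228, 320, 241 and 275 CPM to 63.1, 14.7, 39.6, 34.5 and 27.6 CPM (-2.73 ± 0.44).

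Of 30 genes of fatty acid oxidation and ketogenesis, 8 rose and 1 fell, with a median of 0.24. Acaa1b, a peroxisomal thiolase, read 233 to 541 CPM in controls and 745 to 1071 CPM on HF/HS (1.33 ± 0.29). Ehhadh, another peroxisomal oxidation enzyme, rose by 0.67 and Cpt1a, the gate of mitochondrial oxidation, by 0.38. The call of Cpt1a was lost in 9 of 10 fits with 1 library left out (not without control 453), and that of Ehhadh in 6 (without control 461, 462 or 463 or HF/HS 471, 473 or 481). The count of 8 fell to 3 without control 461. Nuclear genes of the respiratory chain stayed near the controls, with 0 of 32 higher, 2 lower (6 without HF/HS 471) and a median of -0.05.

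In bile acid synthesis and transport, 5 of 24 tested genes rose and 7 fell. Cyp7a1, the rate-limiting enzyme, on chromosome 4 (6265612-6275633, minus strand), read 19.4, 33.8, 31.6, 10.9 and 28.5 CPM in controls and 153, 320, 267, 300 and 709 CPM on HF/HS. It rose by 3.82 ± 0.63 (adjusted p = 5.58e-06) without overlap. Nr0b2, a corepressor of Cyp7a1, went the other way, from 67.8, 29.2, 39.5, 40.8 and 30.0 CPM to 20.4, 16.7, 15.3, 16.7 and 8.65 CPM (-1.41 ± 0.31). Cyp8b1, the sterol 12-alpha-hydroxylase, was not called (-0.57 ± 0.36). Among the transporters, the export pumps Abcc3 (1.98 ± 0.30, 369 to 390 CPM on HF/HS against 70.6 to 179 CPM) and Abcc4 (1.08) rose, and the uptake carriers Slc10a1 (-0.62) and Slco1a1 (-1.45 ± 0.18) fell. Slco1a4, also an uptake carrier, rose by 0.79, a call lost without control 461 or 462 or HF/HS 482.

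Sugar and amino acid enzymes were more often lower than higher. In glucose metabolism 9 of 23 genes fell and 2 rose, and the 2 rises (Pck2, 0.38, and Gys2, 0.32) were lost whichever of the 10 libraries was left out. All 10 of those fits also had a lower median over all genes than the main fit, as given above. Irs2, an adaptor of the insulin receptor, read 164, 146, 191, 120 and 129 CPM in controls and 54.5, 64.0, 51.6, 43.4 and 64.9 CPM on HF/HS (-1.43 ± 0.19, adjusted p = 7.52e-08). Ppp1r3c, a glycogen-targeting phosphatase subunit, fell by 1.55 and Fbp1, of gluconeogenesis, by 0.35. Of 27 genes of amino acid, urea and one-carbon metabolism, 13 fell and 1 rose (Bhmt, 0.27, lost in 8 of 10 fits with 1 library left out, all but those without control 453 and HF/HS 471). Among them were Gls2, the liver glutaminase (-0.88 ± 0.13), Got1, a transaminase (-0.92 ± 0.18), and Hal, which degrades histidine (-0.84 ± 0.12).

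Genes for proteins that hepatocytes secrete were lower or not called. Of 32 secreted proteins and lipoproteins 18 fell and 0 rose, with a median of -0.39. Plg, plasminogen, read 2851 to 3655 CPM in controls and 1722 to 2087 CPM on HF/HS (-0.78 ± 0.10). Of 26 genes of the unfolded protein response 16 fell and 1 rose, among them the chaperones Hspa5 (-0.58 ± 0.16) and Sdf2l1 (-1.30 ± 0.27), while the stress factor Atf3 rose by 1.98 ± 0.37. Of 30 cytosolic ribosomal proteins 23 fell and 0 rose, by small steps with a median of -0.20. In bulk liver, fewer hepatocytes and less RNA per hepatocyte cannot be told apart, here or in any list of cell markers. Of 16 hepatocyte markers 8 fell and 2 rose, and their summed level was 33807 to 38505 CPM in controls and 24420 to 30225 CPM on HF/HS.

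The acute phase proteins, which the liver makes during inflammation, were another list without a riser. Of 25 members 13 fell and 0 rose, with a median of -1.06. Saa1, serum amyloid A1, on chromosome 7 (46740497-46742980, minus strand), read 1291, 1289, 1919, 1422 and 1511 CPM in controls and 131, 159, 108, 175 and 434 CPM on HF/HS (-2.88 ± 0.83, adjusted p = 0.00668). Apcs, serum amyloid P, read 496 to 936 CPM against 106 to 184 CPM (-2.33 ± 0.59). The fibrinogen chains Fga, Fgb and Fgg fell by 1.12, 1.06 and 1.13. Lcn2, lipocalin 2, did not pass the test, at 508 to 931 CPM against 205 to 482 CPM (-1.01 ± 0.76, adjusted p = 0.342), although the ranges were apart, and was called when only the 10 libraries compared were fitted (-1.01, adjusted p = 0.00645). The share of each list that was called, in either direction, is drawn in the plot of shares by list.

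**Figure D2:**
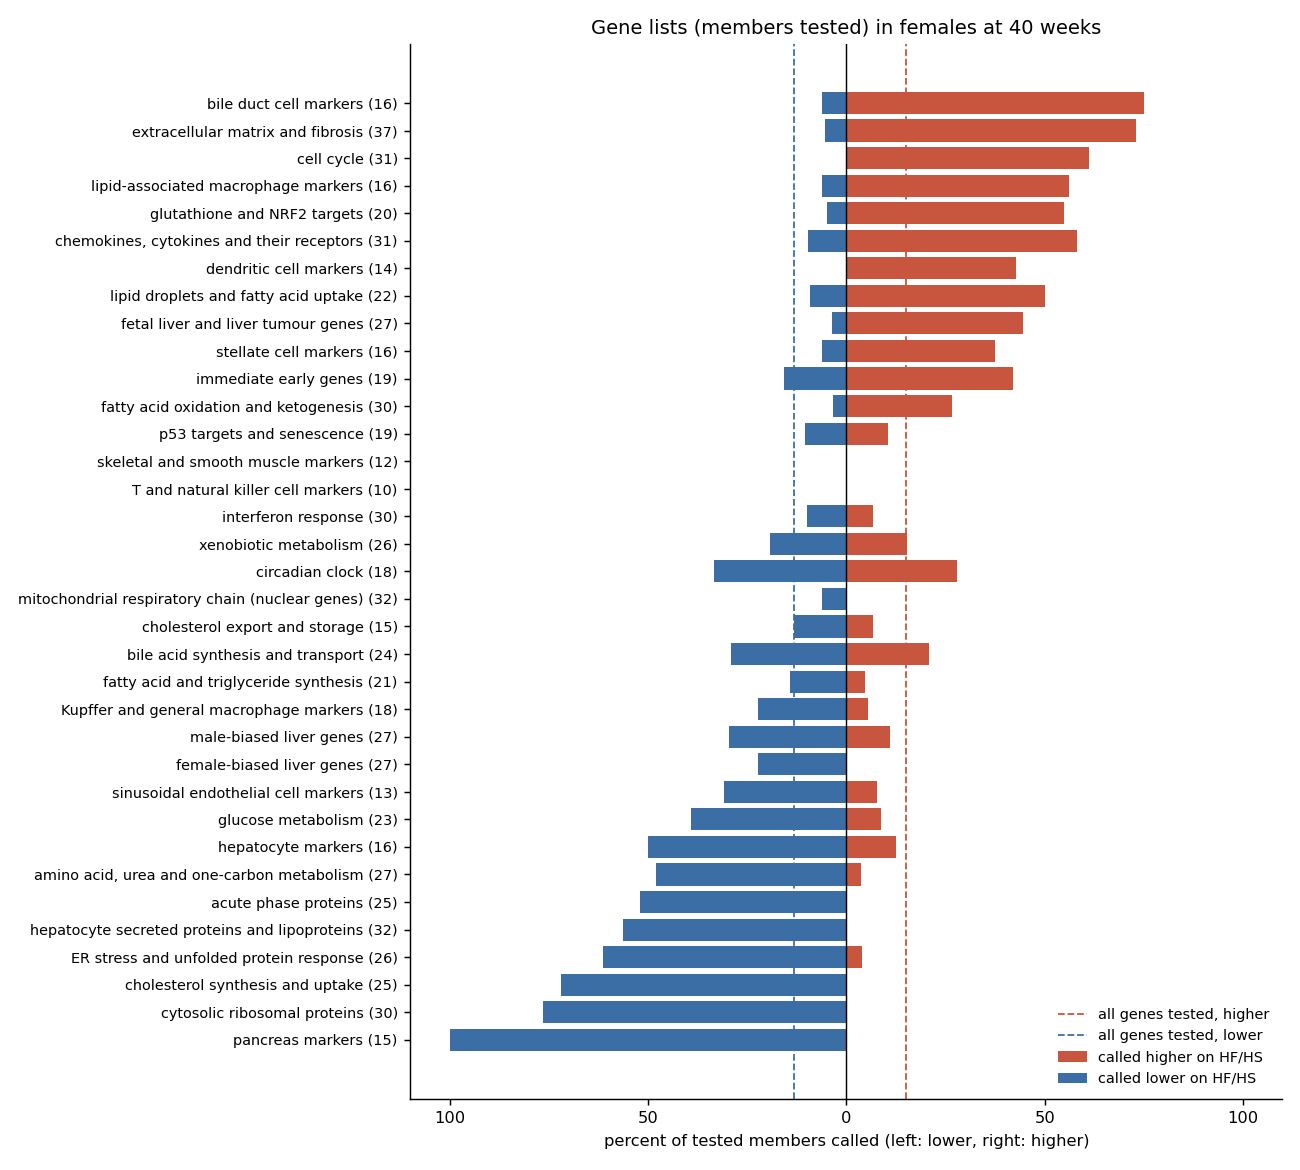
Percent of tested members of each gene list called lower (left) or higher (right) on HF/HS in 40-week females, for lists with at least 10 tested members, with dashed lines at the shares over all genes (13.3% lower, 15.0% higher). Pancreas markers, ribosomal proteins and cholesterol synthesis reach furthest to the left, and bile duct markers and extracellular matrix furthest to the right; the pancreas bar rests on control 463.

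Of 26 tested drug-metabolising genes 4 rose and 5 fell, near the shares over all genes (15.0% and 13.3%). Beside Cyp3a11, the risers were Cyp2c55 (2.76 ± 0.39), the efflux pump Abcb1a (1.46 ± 0.37) and the epoxide hydrolase Ephx1 (1.38 ± 0.30). Cyp2c54 fell by 2.34, Cyp3a16 by 1.41 and Cyp3a13 by 0.77, so that near relatives moved in opposite directions. Of 20 tested glutathione and NRF2 targets, 11 rose and 1 fell. Gsta2, a glutathione transferase, read 1.27, 1.93, 1.11, 0.562 and 0.789 CPM in controls and 9.49, 16.5, 14.6, 13.2 and 11.6 CPM on HF/HS (3.50 ± 0.59). Gsta1 rose by 4.66 ± 0.79, Gstm3 by 2.78 ± 0.47, the cystine carrier Slc7a11 by 3.77 ± 0.62 (4.56 without control 461) and Nqo1, a quinone reductase, by 0.79 ± 0.24. Osgin1 fell by 1.12.

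Both lists of sex-biased genes held more falls than rises in the female livers. Over all genes tested, 13.3% fell and 15.0% rose. Of 27 tested female-biased genes 6 fell and 0 rose. Besides Sult3a1 these included Slc22a26, an organic anion carrier (242 to 423 CPM against 41.4 to 89.5 CPM, -2.45 ± 0.40), A1bg (-3.22 ± 0.64, and -3.89 without HF/HS 471), Cyp3a16 and Cyp2c69 (-1.19). Of 27 male-biased genes 8 fell and 3 rose. The major urinary proteins Mup1, Mup3, Mup7 and Mup12 fell by 1.23 to 1.37 (Mup12 was not called without control 461), and Sult5a1 fell by 3.56. Those that rose were Cyp4a12b (0.592 to 2.46 CPM against 5.86 to 16.0 CPM, 2.56 ± 0.45), Serpina12 (2.21 to 9.38 CPM against 18.2 to 36.3 CPM, 2.05 ± 0.42) and Mup20 (0.95, lost without control 453 or 463 or HF/HS 482).

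Matrix genes mostly rose. Of 37 members 27 rose and 2 fell, with a median of 0.96. Col1a1, the main fibrillar collagen chain, on chromosome 11 (94936224-94953042), read 3.89, 2.53, 3.48, 3.16 and 4.56 CPM in controls and 47.2, 23.3, 37.6, 59.1 and 37.8 CPM on HF/HS (3.55 ± 0.46, adjusted p = 5.56e-08). Col3a1 rose by 2.33 ± 0.32 and the cross-linking enzyme Lox by 2.04. Timp1, an inhibitor of matrix proteases, rose by 3.61 ± 0.59 to 1.5 ± 0.305 CPM (SD, n = 5), and the collagenase Mmp13 by 4.26 ± 0.45. Col5a2 went against the other collagens, from 126, 129, 266, 159 and 160 CPM to 40.9, 70.0, 41.5, 32.0 and 38.1 CPM (-1.91 ± 0.27), and fibronectin (Fn1) fell by 0.73, from 5802 ± 452 to 3492 ± 309 CPM (SD, n = 5 each). Fn1 holds most of the summed level of the list, which was lower on HF/HS (4917 to 5510 CPM) than in controls (6315 to 7585 CPM) although most members rose. Of 16 stellate cell markers 6 rose and 1 fell, the summed level ranging from 854 to 1120 CPM in controls and 1027 to 1169 CPM on HF/HS.

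Of 16 markers of lipid-associated macrophages 9 rose and 1 fell. Trem2, a lipid receptor of these cells, read 0.268, 0.133, 0.740, 1.05 and 1.05 CPM in controls and 3.18, 2.16, 3.95, 6.29 and 4.79 CPM on HF/HS (2.66 ± 0.46), and Spp1, osteopontin, read 12.4 to 21.4 CPM against 46.4 to 58.2 CPM (1.82 ± 0.27). Spp1 is also a member of the bile duct list, and bulk liver does not tell which cells expressed it. In the list of 18 Kupffer and general macrophage markers 4 fell and 1 rose (Lyz2, 0.67, lost without control 452 or 453 or HF/HS 481, 482 or 483). Those that fell were Timd4, a receptor for dying cells, from 6.97 to 14.8 CPM down to 2.91 to 4.94 CPM (-1.34 ± 0.33), Cd163, a haemoglobin scavenger receptor, from 51.8 to 77.4 CPM down to 13.0 to 33.5 CPM (-1.63 ± 0.36), and Vsig4, a complement receptor, from 49.9 to 105 CPM down to 37.0 to 43.1 CPM (-0.96 ± 0.27). The fourth was Marco (-1.88 ± 0.62), a call lost without control 461 (-1.44, adjusted p = 0.0996). Adgre1 and Csf1r, at -0.10 ± 0.26 and -0.17 ± 0.25, were among the 13 not called. The summed level of the list was 1007 and 1008 CPM in controls 452 and 453, 1537 to 1718 CPM in controls 461, 462 and 463, and 1120 to 1393 CPM on HF/HS. The same 3 controls were the higher ones for Timd4, Vsig4 and Marco, and the part of this split in the falls was not tested.

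Of 31 tested chemokines, cytokines and receptors 18 rose and 3 fell, with a median of 1.17. Ccl2, which draws monocytes, read 0.370 to 1.23 CPM in controls and 4.43 to 7.09 CPM on HF/HS (2.93 ± 0.42). Tnf rose by 2.24 ± 0.55 to 0.997 ± 0.237 CPM (SD, n = 5), Cxcl10 by 2.37 ± 0.38 and the monocyte receptor Cx3cr1 by 2.05 ± 0.35. Cxcl13, a B cell chemokine, fell from 1.54 to 4.74 CPM down to 0.184 to 0.864 CPM (-2.25 ± 0.47). Of 14 dendritic cell markers 6 rose and 0 fell, led by Itgax (2.70 ± 0.39) and the class II chains H2-Eb1 (1.31 ± 0.26) and H2-Aa (1.31), with a summed level of 212 to 338 CPM in controls and 500 to 658 CPM on HF/HS. Itgax is also a member of the lipid-associated macrophage list, so the counts of these lists are not independent. Interferon response genes did not share the rise, with 2 of 30 higher, 3 lower (5 without control 452) and a median of -0.00. No member was called among the 10 tested T and natural killer cell markers, whose summed level was 4.49 to 7.52 CPM against 6.86 to 10.8 CPM.

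Bile duct markers were the cell type list with the largest share of risers among lists with 10 or more tested members: 12 of 16 rose and 1 fell, with a median of 1.61. Their summed level was 328 to 412 CPM in controls and 474 to 610 CPM on HF/HS. Cftr, the chloride channel of duct cells, read 0.402, 0.599, 0.148, 0.492 and 0.789 CPM in controls and 3.31, 3.56, 2.82, 4.57 and 3.62 CPM on HF/HS (2.87 ± 0.47). Epcam, an epithelial adhesion protein, rose by 2.28 ± 0.35, Krt7 by 1.90 ± 0.36 and Krt19 by 1.39 ± 0.37, whereas Cdh1, E-cadherin, fell by 1.28 and Sox9, a duct and progenitor factor, was not called (0.13 ± 0.23). Genes of fetal liver and liver tumours share Epcam, Tspan8, Prom1 and Sox9 with it, and 12 of 27 rose and 1 fell. Sox4 read 2.67 to 5.52 CPM in controls and 18.8 to 37.5 CPM on HF/HS (2.87 ± 0.32), and the non-coding RNA H19, on chromosome 7 (142575529-142578143, minus strand), read 11.5, 8.52, 33.7, 11.2 and 15.7 CPM against 49.2, 94.9, 90.4, 139 and 106 CPM (2.57 ± 0.56). The fetal serum protein Afp and the tumour marker Gpc3 stayed low and were not called (0.14 ± 0.33 and -0.14 ± 0.29).

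Of 31 cell cycle genes 19 rose and 0 fell, with a median of 1.03. In 4 of the 31 every HF/HS animal lay above all controls, near the share over all genes tested (12.5%). The mean log2 CPM of the list was 0.62 to 1.01 in 4 controls, 2.15 in control 453 and 1.87 to 2.41 on HF/HS. Mki67, a marker of cycling cells, read 5.23, 30.8, 6.81, 9.42 and 8.68 CPM in controls and 29.0, 20.3, 28.6, 25.5 and 20.9 CPM on HF/HS, and was called without control 453 (1.70, adjusted p = 0.00346) but not with it (1.02 ± 0.43, adjusted p = 0.0713), while limma voom called it with all libraries (1.41, adjusted p = 0.000599). The number of list members higher was 23 without control 453 and 11 without control 461.

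Clock genes were called in both directions. Of 18 genes 5 rose and 6 fell, and of these 11 only Nr1d1 had ranges that overlapped. Over all genes, 2938 of the 4017 called had ranges apart. The call of Nr1d1 was lost without control 452 or 461 or HF/HS 473 or 483. Dbp, an output factor of the clock, on chromosome 7 (45705088-45710203), read 1.34, 2.60, 1.26, 1.12 and 0.614 CPM in controls and 9.67, 20.0, 13.7, 19.1 and 35.7 CPM on HF/HS (3.77 ± 0.81, adjusted p = 0.000321). Per3, Tef, Nr1d1 and Nr1d2 rose with it, by 2.15, 1.05, 0.98 and 1.05. Nfil3, the repressor that opposes Dbp, read 92.9, 72.8, 98.8, 60.2 and 61.5 CPM against 31.5, 25.8, 22.5, 20.5 and 18.1 CPM (-1.70 ± 0.31), and Cry1 (-1.51 ± 0.25), Npas2 (-1.11 ± 0.34), Arntl (-0.84 ± 0.21) and Clock (-0.27) fell with it. The sources used here do not name the hour of sampling, so diet and time of day cannot be told apart for these genes. The same holds for any gene of the other lists whose level follows the hour.

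Of 19 immediate early genes 8 rose and 3 fell. The growth factor response gene Egr2 read 0.0666 to 0.422 CPM in controls and 2.43 to 4.48 CPM on HF/HS (3.68 ± 0.48), and Myc rose by 1.24 ± 0.34, while Egr1, Ier2 and Dusp1 fell by 1.16, 0.74 and 1.26. The ranges of Egr1 overlapped, and its call was lost without control 452, 461 or 462 or HF/HS 481 or 483. Of 19 tested p53 targets 2 rose and 2 fell, with Sesn2 lower by 0.79, against 15.0% higher and 13.3% lower over all genes. Of 13 tested markers of sinusoidal endothelium 4 fell, among them Clec4g (-0.53) and Dnase1l3 (-0.59), and 1 rose, with 7 lower without control 453. The antibody joining chain Jchain was the called member of 7 tested B and plasma cell markers, from 7.92 to 20.4 CPM in controls down to 4.83 to 5.83 CPM on HF/HS (-1.09 ± 0.28).

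Markers of neighbouring tissue moved with single libraries. All 15 tested pancreas markers were called lower, but control 463 held 1012 summed CPM of them against 67.4 CPM in control 452, 15.5 to 18.9 CPM in the other controls and 2.88 to 16.9 CPM on HF/HS, and 1 call was left without it. Muscle markers summed to 58.1 CPM in control 463 and 74.8 CPM in HF/HS 482 against 15.5 to 28.4 CPM elsewhere, and 0 of 12 were called. Erythroid markers summed to 19.9 and 19.1 CPM in controls 452 and 453, 35.8 to 60.8 CPM in controls 461, 462 and 463 and 19.1 to 28.0 CPM on HF/HS, with Hba-a1, Hba-a2, Hbb-bs and Hbb-bt at 0 in all 10 libraries. Of 7 adipose markers 3 rose and 1 fell (Cidea and Pnpla3, given above, with Fabp4 and Lep), and the calls of Fabp4 and Lep were lost without several single libraries.

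The same diet and duration in males called 5162 genes (36.4%), 3006 higher (21.2%) and 2156 lower (15.2%). Of the female calls, 1346 of those higher were also higher in males (63.3% of the female and 44.8% of the male list) and 912 of those lower were lower (48.3% and 42.3%), while 20 and 16 were called the opposite way. The difference between the sexes was itself called for 534 genes (3.77%), 215 with a higher fold change in females (1.52%) and 319 with a lower one (2.25%). That number was smaller whichever of the 20 libraries was left out, except female control 453 (656 without it). The smaller counts ran from 260 without female control 461 to 522 without male control 502. They included 344 without female control 463, 312 without female HF/HS 473, 265 without male control 493 and 316 without male HF/HS 512. The scatter of fold changes by sex shows them.

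**Figure D3:**
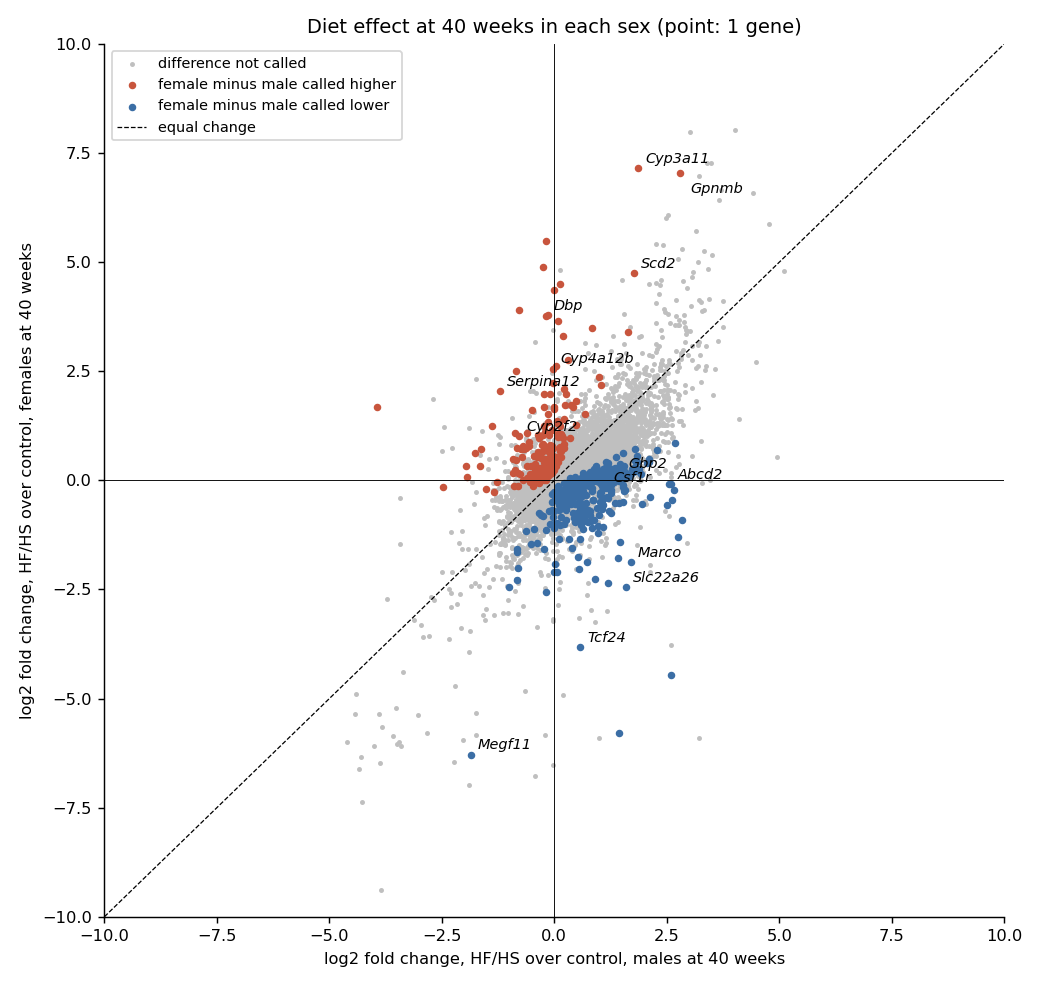
Log2 fold change on HF/HS at 40 weeks in females against that in males, 1 point per gene of 14180, with the 534 genes whose difference between the sexes was called in colour. Cyp3a11 stands at 7.15 in females and 1.87 in males, and Tcf24 at -3.82 in females and 0.58 in males.

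Some of the genes with the largest called difference also stood apart between control females and control males. Cyp3a11 averaged 3.80 ± 2.58 CPM (SD, n = 5 in each group) in control females and 470 ± 129 CPM in control males, and 550 ± 368 and 1716 ± 165 CPM on HF/HS. Its fold change differed by 5.29 ± 0.69 between the sexes (adjusted p = 1.10e-06). Mtnr1a, a melatonin receptor, averaged 0.0274 and 1.67 CPM on control and HF/HS diets in females, and 10.4 and 9.16 CPM in males (difference 5.67 ± 0.70). Tcf24, a helix-loop-helix factor, averaged 41.6 and 2.95 CPM in females and 1.64 and 2.51 CPM in males (difference -4.40 ± 0.73). In each of these 3 genes the HF/HS female mean lay nearer to the male control mean than the control female mean did. The difference by which they were picked holds the same group means, so this pattern is partly built into the choice. Of the 27 male-biased genes the difference was called for 7, with 6 higher in females, among them Serpina12 (3.26 ± 0.55) and Cyp4a12b (2.59 ± 0.55), and 1 lower (Slco1a1, -0.93 ± 0.25). In males 19 of these 27 fell and 0 rose. Among the 27 tested female-biased genes 8 differences were called, all lower in females, and in males 11 rose and 1 fell. Over all genes tested, 1.52% had a called difference higher in females and 2.25% a lower one. Abcd2, a female-biased peroxisomal transporter, was not called in females (-0.09 ± 0.31) and rose by 2.59 ± 0.39 in males (difference -2.68 ± 0.50). The differences of Serpina12, Cyp4a12b, Slco1a1 and Abcd2 were not examined with single libraries left out.

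In males of the same age 5 of the 25 cholesterol genes rose and 2 fell, with a median of 0.09. The difference itself was called for 4 members, all lower in females, among them Msmo1 (-1.07 ± 0.32, adjusted p = 0.043), Fdft1 (-0.92 ± 0.24, adjusted p = 0.0195) and Mvk (-0.91 ± 0.25, adjusted p = 0.03). These differences were not examined with single libraries left out. The plot of cholesterol genes shows both sexes.

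**Figure D4:**
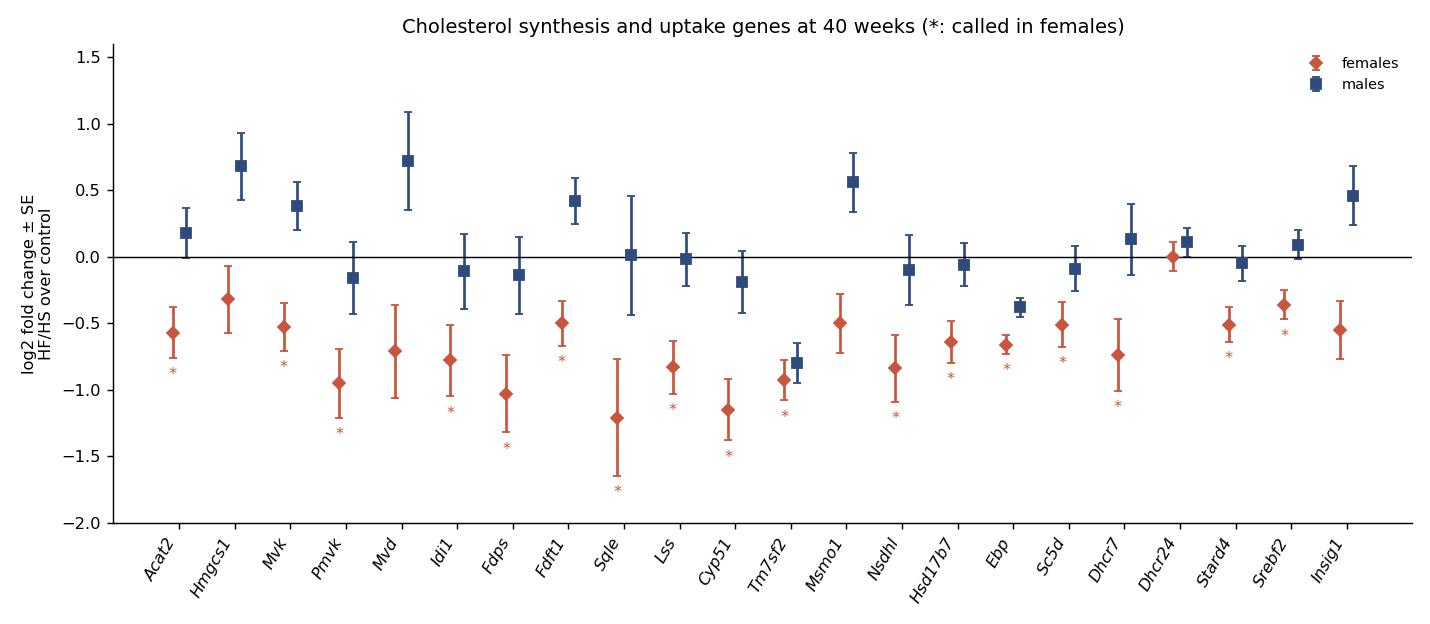
Log2 fold change ± SE on HF/HS at 40 weeks for 22 of the 25 genes of cholesterol synthesis and uptake in females and in males, with an asterisk at genes called in females. The 17 of them that were called lie below 0 in females, from -0.36 for Srebf2 to -1.21 for Sqle.

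Macrophage and interferon genes held most of the called sex differences among the immune lists, with 6 each, against 2 of 31 chemokines, cytokines and receptors, 1 of 16 lipid-associated macrophage markers, 1 of 7 B and plasma cell markers and 0 dendritic, neutrophil or T and natural killer cell markers. In males 14 of the 18 Kupffer and macrophage markers rose and 0 fell. The difference was called for 6 of them, all lower in females, including Timd4 (-1.66 ± 0.48), Vsig4 (-1.71 ± 0.39), Csf1r (-1.33 ± 0.35), Adgre1 (-1.36 ± 0.38), C1qa (-1.15 ± 0.35) and Marco (-3.59 ± 0.94). The female controls split on this list, as given above, and the part of that split in these differences was not tested. Of the 30 interferon genes 17 rose and 0 fell in males, and 6 differences were called, all lower in females, as in Gbp2 (-1.34 ± 0.39) and Zbp1 (-1.71 ± 0.39). The adjusted p of these 6 ran from 0.00655 to 0.0415. Gpnmb differed the other way, with a larger rise in females (4.26 ± 0.98). Scd2 rose by 4.75 in females and 1.77 ± 0.37 in males (difference 2.98 ± 0.53), Irs2 fell by 1.43 in females and had -0.38 ± 0.19 in males (difference -1.05 ± 0.26), and Dbp rose in females and had -0.18 ± 0.57 in males (difference 3.95 ± 1.01). Dbp averaged 1.39 ± 0.733 CPM in control females, 19.7 ± 9.92 CPM on HF/HS, and 113 ± 30.5 and 100 ± 13.8 CPM in control and HF/HS males. For this clock gene, and any other gene that follows the hour, sex and time of day cannot be told apart either. The sex differences given in this paragraph were not examined with single libraries left out.

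After 20 weeks of the diets, females had 2872 called genes (20.3%), 1351 higher (9.53%) and 1521 lower (10.7%). Of the 40-week calls, 645 higher (30.3%, and 47.7% of the 20-week list) and 719 lower (38.0% and 47.3%) were shared. The change of the diet effect from 20 to 40 weeks was called for 504 genes (3.55%), 243 upward (1.71%) and 261 downward (1.84%). It was called for 253 genes without 40-week control 452, 321 without 453, 189 without HF/HS 482, 254 without HF/HS 483 and 191 without the 20-week HF/HS animal 421. In cholesterol synthesis 18 of 25 genes fell at 20 weeks and 0 rose, with a median of -0.81, and the change between the durations was called for 0 of them. At 20 weeks 6 of 37 matrix genes rose and 3 fell, and 1 of 16 bile duct markers rose and 1 fell. The change between the durations was called for 3 of the 37 matrix genes and 4 of the 16 bile duct markers, upward in each. These were Col3a1 (1.47 ± 0.44), Col6a3 (1.32 ± 0.35) and Loxl1 (1.56 ± 0.46) and the duct list members Ehf (2.01 ± 0.50), Tspan8 (2.02 ± 0.54), Spp1 (1.49 ± 0.38, also in the lipid-associated macrophage list) and Krt18 (0.57 ± 0.16). The 7 calls had adjusted p of 0.0176 to 0.0479. With each of the 20 libraries left out in turn, Ehf and Spp1 were called throughout, Col6a3 was lost without HF/HS 482 or the 20-week HF/HS animal 421, Tspan8 without HF/HS 482 or control 452, and Krt18, Loxl1 and Col3a1 in 13, 14 and 16 of the 20 fits.

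Osbpl3 was the named gene with the largest called upward change from 20 to 40 weeks. It averaged 1.65 and 4.44 CPM on control and HF/HS diets at 20 weeks, 1.54 and 60.0 CPM at 40 weeks and 2.23 and 74.1 CPM at 60 weeks, a change of 3.83 ± 0.92 from 20 to 40 weeks (adjusted p = 0.0147). Scd2 averaged 50.7 ± 33.4 CPM on HF/HS at 20 weeks, 372 ± 134 CPM at 40 weeks and 538 ± 178 CPM at 60 weeks (SD, n = 5 each), a change of 2.48 ± 0.53. Sult3a1 averaged 186 ± 58.2 CPM on HF/HS at 20 weeks, 6.10 ± 3.65 CPM at 40 weeks and 4.20 ± 4.88 CPM at 60 weeks, a change of -4.31 ± 0.64 (adjusted p = 9.90e-05). Sult3a2 changed likewise (-3.50 ± 0.46), though the pair can share reads. Clock genes changed as well, with Cry1 at -1.52 ± 0.35, Nfil3 at -1.46 ± 0.43 and Nr1d2 at 1.18 ± 0.30. With no sampling hour given, duration of the diet and time of day cannot be told apart for them or for any other gene that follows the hour.

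At 60 weeks females had 5246 called genes (37.0%), 2751 higher (19.4%) and 2495 lower (17.6%). They shared 1476 of the higher (69.4% of the 40-week and 53.7% of the 60-week list) and 1205 of the lower calls (63.8% and 48.3%). The change from 40 to 60 weeks was called for 0 genes (0%) by edgeR's quasi-likelihood test, with 1763 genes (12.4%) at an unadjusted p under 0.05; DESeq2 called 7 and limma voom 1775. Without the 60-week control animal 31, edgeR called 462, and 2 without 60-week control 32 or 40-week control 453. Matrix (28 of 37 higher, 2 lower), bile duct markers (14 of 16 higher, 1 lower) and cholesterol synthesis (16 of 25 lower, 0 higher) had counts like those at 40 weeks. For Kupffer and macrophage markers 11 of 18 rose and 1 fell at 60 weeks, against 1 and 4 at 40 weeks, and for ribosomal proteins 2 rose and 0 fell against 0 and 23, without any called change of a member. The list medians of the 4 comparisons are drawn side by side.

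**Figure D5:**
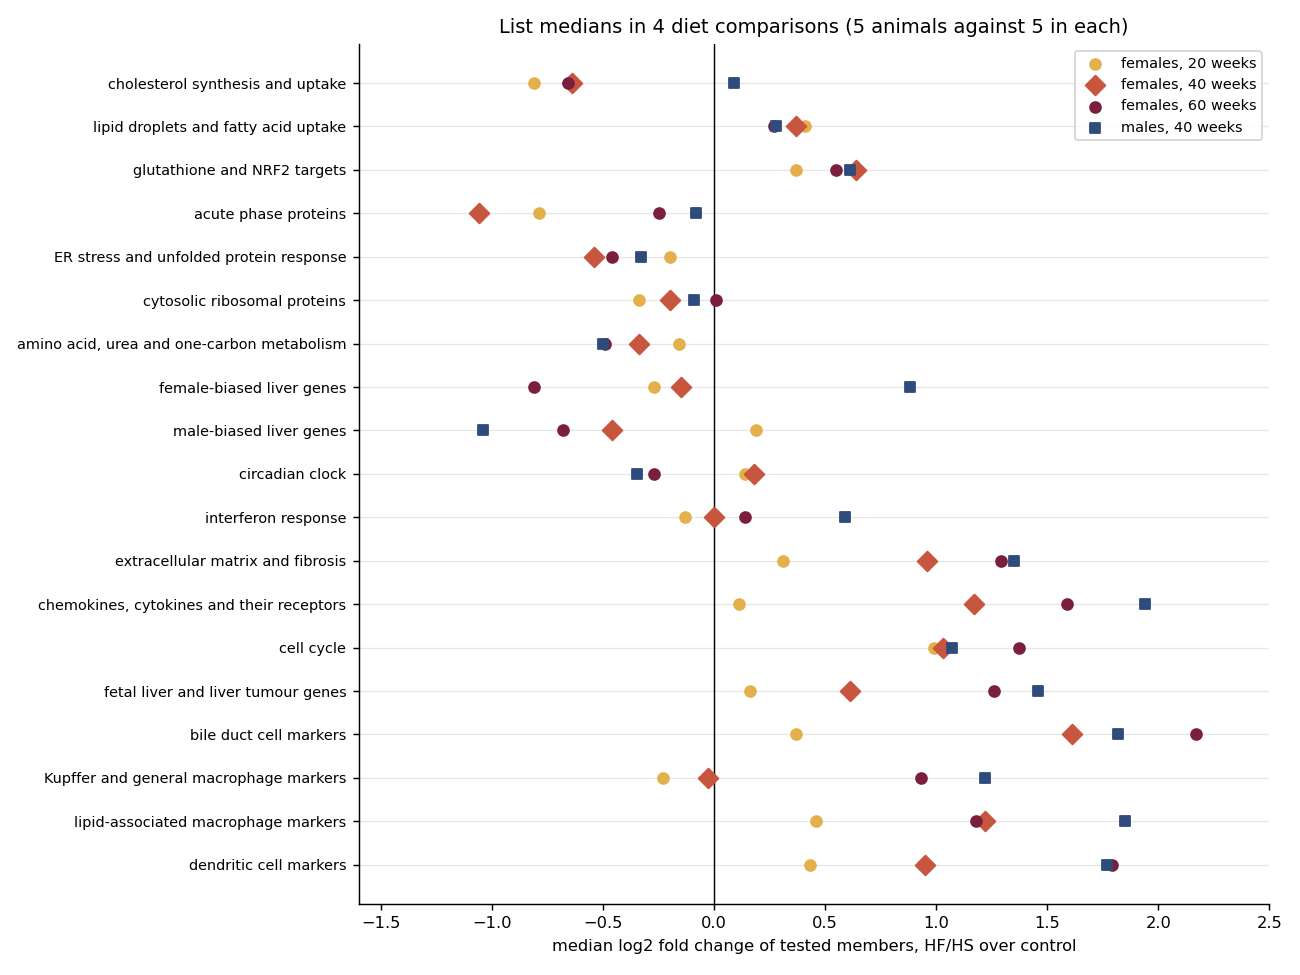
Median log2 fold change on HF/HS over the tested members of 19 lists, in females at 20, 40 and 60 weeks and males at 40 weeks. For cholesterol synthesis the female medians are -0.81, -0.64 and -0.66 and the male median is 0.09; for matrix they are 0.31, 0.96 and 1.29, and 1.35 in males.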

How the data were processed

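The deposited values are whole-number counts, 1 per gene symbol in each library, that the authors made from stranded total RNA libraries depleted of ribosomal RNA, per the labels' protocols. The submitters' processing notes name mm10. Aligner, counter, gene annotation and whether strand was used in counting are not named in any source used here. Of 24982 entries 4778 had no count, and 26 symbols spoiled into dates were never named.

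All 60 libraries entered one edgeR 4.0.16 quasi-likelihood model (R 4.3.3) of 12 group means, scaled by TMM and filtered by filterByExpr (at least 10 counts, 15 in total), which kept 14180 genes. The diet effects and their differences were contrasts of it, called under 0.05 after Benjamini-Hochberg adjustment. The SE was the log2 fold change divided by the root of F. In simulated counts of the female 40-week contrast, 12 of 171 calls were false, with 70.1% of genes recovered at 1.5-fold, 76.1% at 2-fold and 92.4% at 4-fold. It was a single simulation that changed 200 of 14180 genes, in the 40-week HF/HS females alone. In the data 28.3% of genes were called, so these rates need not hold for the real contrast. Every pair of libraries of a group differed beyond counting error (chi-square over its degrees of freedom 6.10 to 25.7).

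Genes named were the 10 highest and 10 lowest called changes with a mean of at least 1 CPM, up to 4 called members per list, a panel, and the 5 highest and 5 lowest called differences, except 8 genes that are not reported here. Further list members serve as examples and were chosen after their values were seen. Members and lists were chosen with earlier results of these data known. Positions are from GENCODE M21. Alternatives were RLE size factors, DESeq2 1.42.0, voom of limma 3.58.1, no filter, removal of small non-coding RNA genes, females only, own libraries only, and each library left out in turn.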

Additional observations from a re-analysis of the deposited data

Results flagged for a closer look

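In groups of 5 animals, 1 library stood apart from the other 4 in 5 of 82 list and group pairs examined, and chance flags about 1 in 20. HF/HS animal 473 was low for chemokines, cytokines and receptors (mean log2 CPM 2.21) and for stellate cell markers (4.75). Control 453 was high for cell cycle genes (2.15), and control 452 was high for p53 targets (4.36). HF/HS animal 482 was high for muscle markers (1.36).

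The diet effect at 40 weeks differed between the sexes, by the test of the difference in edgeR with Benjamini-Hochberg adjustment, for 9 named genes. The fold change was higher in females for Mtnr1a (5.67), Cyp3a11 (5.29), Omd (5.17), Myom2 (4.68) and Sstr2 (4.38), in log2 units. All 5 were higher in control males than in control females, as in Omd with 32.8 ± 5.09 CPM (SD, n = 5) against 0.0430 ± 0.0655 CPM and Myom2 with 51.5 ± 1.98 against 0.195 ± 0.0912 CPM. The control levels of both sexes enter the difference by which these genes were picked, so this is no separate result. The fold change was lower in females for Megf11 (-4.43), Tcf24 (-4.40), Slc22a26 (-4.05) and Wisp2 (-3.74). Wisp2, a secreted signalling protein, was not called in females (-0.91) and rose by 2.84 in males. Without control 461 the differences of Omd and Sstr2 were 6.16 and 6.61.

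In females the diet effect changed from 20 to 40 weeks, by the same kind of test, upward for Osbpl3 (3.83), H19 (2.78), Cyp7a1 (2.68), Scd2 (2.48) and Dab1 (2.37), and downward for Sult3a1 (-4.31), Sult3a2 (-3.50), Tiam2 (-2.55) and Malrd1 (-2.04). Cyp7a1 varied widely at 20 weeks, at 92.5 ± 85.8 CPM (SD, n = 5) in controls and 203 ± 225 CPM on HF/HS. Leaving out each of the 20 libraries in turn, edgeR with Benjamini-Hochberg adjustment lost the call of Cyp7a1 in 16 fits (1.94, adjusted p = 0.144 without the 20-week control 383), of Malrd1 in 13 (-1.89, adjusted p = 0.0985 without HF/HS 482) and of H19 in 12 (2.34, adjusted p = 0.121 without the 20-week control 203). The other 6 genes were called in every such fit.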

How the results depend on the processing

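No paired analysis was possible because the labels share no animal number between groups. For the diet effect, DESeq2, RLE size factors, no filter, removal of small non-coding RNA genes, females only and own libraries only kept both counts within 1.5 times the main ones, and limma voom called 3177 higher and 2957 lower. Of 249 named genes, these 6 settings and voom gave 1675 values with the same direction and call, 21 weaker, 24 stronger and 2 reversed; leaving out single libraries gave 2339, 128, 11 and 12. Removing small non-coding RNA genes lowered the share of higher calls from 52.9% to 45.0%. Reversals were confined to uncalled genes: Fasn (main 0.02) at -0.02 without small non-coding RNA genes and at -0.11, -0.05, -0.07, -0.18, -0.04 and -0.09 without control 461, 462 or 463 or HF/HS 471, 481 or 482 (0.12 at most, without control 452); Afp (0.14) at -0.10 under voom and -0.05 and -0.06 without control 453 or HF/HS 473 (0.25 at most); Gpc3 (-0.14) at 0.06 without control 463 (-0.34 at least); C1qa (-0.02) at 0.05 and 0.03 without control 461 or 462 (-0.14 at least); Sox9 (0.13) at -0.00 without control 453 (0.22 at most).

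Left out in turn, 10 libraries gave 1576 to 1905 genes higher and 1942 to 2282 lower on the diet. For females minus males the counts were 369 higher by DESeq2, 1194 and 1724 lower by voom, 973 and 1436 on own libraries and 196 lower with no filter, and 126 to 267 and 130 to 389 with a library left out (260 in all without control 461, 656 without control 453). For 40 minus 20 weeks they were 668 and 780 by voom, 149 and 151 with no filter, and 79 to 272 and 109 to 395 with a library left out (189 without HF/HS 482, 667 without HF/HS 20-week animal 292). For 60 minus 40 weeks they were 3 and 4 by DESeq2, 950 and 825 by voom, and 0 to 228 and 0 to 234 with a library left out. The cause of these shifts was not tested. The 9 named sex differences kept their direction and call in every setting and with any of 20 libraries left out. The 20 to 40 week changes of Cyp7a1, H19 and Malrd1 lost their calls under several settings, and that of Osbpl3 under voom (adjusted p = 0.0519). At this depth, genes near 1 CPM rest on few counts, and fold changes from groups near 0 depend on the prior count.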
